A study of Mus musculus with 59 samples.

Results

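The vehicle livers of 5 male Muta™Mouse were compared with the forestomachs of the same 5 animals, which gave 10 of the 59 arrays of the series. Arrays were chosen by their source label alone, D0_liver (5 arrays) and D0_forestomach (5 arrays), and the number of the mouse in the title ties both organs to an animal. Muta™Mouse is a transgenic strain that carries a bacterial lacZ reporter in all its cells and is used for mutation assays. All 10 samples came from mice of about 16 weeks that were gavaged with olive oil alone (0 mg/kg-bw/day) for 28 days, with the organs taken 72 hours after the last gavage, so both groups share the vehicle and the gavage itself. RNA came from random sections of each organ and was labelled with Cy5, and a pool of RNA from mouse cell lines (Universal Mouse Reference RNA) was labelled with Cy3 on each array with no dye swap. The remaining arrays come from dosed mice (groups D1 with 25, D2 with 50 and D3 with 100 mg/kg-bw/day) and from lung. The labels name the compound as BbF in one place and as benz(a)anthracene in another, which does not touch the vehicle groups. The study gives these doses for BbF, benzo(b)fluoranthene, and lower ones for benz(a)anthracene. Each level below is a log2 ratio of tissue to reference on an array, and each difference is liver minus forestomach on that log2 scale, so that 0 means equal levels and a negative value means higher in forestomach. The question is how the baseline programme of an organ that metabolises what the gut absorbs differs from that of the organ a gavaged compound meets first.

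The liver is built mainly of hepatocytes, which secrete most proteins of blood plasma, make bile acids from cholesterol, dispose of ammonia through the urea cycle and oxidise and conjugate foreign compounds. Their identity rests on a network of transcription factors that includes the HNF4, FOXA and C/EBP proteins. The rodent forestomach is a non-glandular pouch in front of the glandular stomach. It is lined by a keratinised stratified squamous epithelium, whose basal cells divide on a basement membrane and whose upper cells build desmosomes, keratin filaments and a cornified envelope under factors such as KLF4, GRHL and AP-1 proteins, and it is wrapped in smooth muscle.

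Promoters of 2 genes higher in each organ are shown as examples that hold the motifs marked. Other genes lacked them: those of Krt5, Krt14 and Krt10 held no match to TGANTCA, and those of Apoa1 and Apoh neither CAAAGTC nor TTGCNNAA. Each is 300 bases long, runs 5′ to 3′ on the strand of the gene and ends 50 bases after the start of transcription, as RefSeq gives it for GRCm38.p6 (the headers of the array files name mm9, whose coordinates are not used). Capitals mark matches, on either strand, to CAAAGTC (a core bound by HNF4) and TTGCNNAA (C/EBP) in Alb and Fabp1, and to TGANTCA (AP-1, the same on both strands) in Krt13 and Krtdap. Alb held both of the first 2 motifs, and Fabp1 held TTGCNNAA only. The region of Alb, serum albumin, is chr5:90460620-90460919 (plus strand). The region of Fabp1, liver fatty acid-binding protein, is chr6:71199629-71199928 (plus strand). The region of Krt13, a keratin of internal stratified epithelia, is chr11:100120528-100120827 (minus strand, 1 of 2 starts listed). The region of Krtdap, a keratinocyte differentiation protein, is chr7:30787655-30787954 (plus strand).
Alb: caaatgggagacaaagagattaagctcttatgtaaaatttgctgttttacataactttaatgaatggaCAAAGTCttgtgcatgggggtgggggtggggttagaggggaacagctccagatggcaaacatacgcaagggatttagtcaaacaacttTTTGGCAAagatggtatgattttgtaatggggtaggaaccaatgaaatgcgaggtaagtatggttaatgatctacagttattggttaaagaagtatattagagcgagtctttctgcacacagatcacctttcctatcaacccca
Fabp1: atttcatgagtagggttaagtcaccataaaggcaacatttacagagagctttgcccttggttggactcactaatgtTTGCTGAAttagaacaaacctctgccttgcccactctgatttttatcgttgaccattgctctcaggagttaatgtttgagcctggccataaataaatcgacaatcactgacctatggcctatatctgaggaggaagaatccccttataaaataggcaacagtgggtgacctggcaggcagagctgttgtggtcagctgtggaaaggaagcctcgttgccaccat
Krt13: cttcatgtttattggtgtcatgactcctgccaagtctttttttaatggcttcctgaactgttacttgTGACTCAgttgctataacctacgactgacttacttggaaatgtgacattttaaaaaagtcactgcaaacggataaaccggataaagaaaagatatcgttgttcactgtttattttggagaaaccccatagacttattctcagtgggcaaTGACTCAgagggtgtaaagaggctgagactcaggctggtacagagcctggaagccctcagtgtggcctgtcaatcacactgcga
Krtdap: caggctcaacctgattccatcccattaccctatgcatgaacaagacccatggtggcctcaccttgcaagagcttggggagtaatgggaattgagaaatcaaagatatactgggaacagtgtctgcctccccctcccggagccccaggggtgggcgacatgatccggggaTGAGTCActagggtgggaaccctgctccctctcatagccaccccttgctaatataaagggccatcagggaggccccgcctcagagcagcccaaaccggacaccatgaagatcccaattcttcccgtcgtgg

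Over the 19468 promoters of genes on the array that the table holds, TTGCNNAA was found in 9.98%, against 15.3% of the 838 promoters of genes called at 4-fold or more higher in liver and 11.4% of the 1026 of genes called at 4-fold or more higher in forestomach. CAAAGTC was found in 7.52% of the liver and 5.75% of the forestomach promoters, against 4.24% of all. For TGANTCA the order was the other way, with 8.95% in liver, 11.6% in forestomach and 6.93% of all. Shares of AACNGGTT (GRHL) were 2.27%, 3.02% and 1.91%, those of CACACCC (KLF) 10.1%, 10.7% and 8.26%, and those of TATAAA 16.8%, 14.4% and 11.9%. Promoters of both called sets were poorer in CpG than all promoters, with a median of 6 CpG in liver and 11 in forestomach against 15, and the median GC content was 54%, 58% and 57.3%. These shares are descriptions of letters in a fixed window, without a test, and some genes have several starts (663, 816 and 15889 genes stand behind the 3 sets).

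3 features of the arrays have to be known before the results. First, the liver array of mouse 5 had a weak Cy5 signal: 12.5% of its probes were well above background, against 40.5% to 45.5% on the other livers and 39.6% to 47.5% over the other 9 arrays. Its log2 ratios spread less (SD over probes 0.85, against 1.45 to 1.5 on the other livers) and correlated with those of the other livers at 0.826 to 0.834, against 0.986 to 0.989 among mice 1 to 4. Second, forestomach arrays carried genes of the glandular stomach to unequal degrees, those of mice 1 and 4 (r = 0.962 with each other) the most. The mean of the 8 glandular stomach genes on the array was 6.04, 0.91, 3.87, 5.37 and 2.76 in forestomachs 1 to 5, and 0.01 to 0.05 in liver. Gkn2, a gastrokine, was at 8.00, 1.18, 6.59, 7.34 and 6.00 and was thus high in mice 3 and 5 as well. Atp4a and Gkn1 were highest in mice 1 and 4. Atp4a, a subunit of the acid pump of parietal cells, was at 6.03 and 5.52 in mice 1 and 4 and at 0.27, 1.85 and 0.44 in mice 2, 3 and 5. Gkn1, gastrokine of the gastric surface mucosa, was at 5.43 and 4.05 in mice 1 and 4 and at 0.41, 0.70 and 0.42 in the others. Last, adipocyte genes were high in forestomachs 3 and 5, where the mean of 5 genes was 3.63 and 4.42, against -0.10 to 0.20 in forestomachs 1, 2 and 4 and -0.10 to 0.03 in liver. In a bulk sample, fewer cells of a type and less RNA per cell cannot be told apart. The part of these features in the results was not tested. For some, but not all, of the genes named below whose level followed these features, the difference is also given without the arrays concerned.

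The marker genes matched the organ on every array. Alb was at 6.36, 6.47, 5.96, 6.19 and 7.16 in livers 1 to 5 and at 2.47, 1.26, 1.47, 1.61 and 0.30 in the forestomachs. Apoa2, an apolipoprotein of high-density lipoprotein, was at 4.17, 4.18, 3.85, 4.11 and 5.92 in liver and between -0.08 and 0.24 in forestomach. Krt13 was at 5.04, 5.22, 5.33, 5.03 and 4.98 in forestomach and between -1.02 and -0.10 in liver. Krt4, the partner of Krt13 in internal squamous epithelia, was at 6.50, 6.93, 6.97, 6.43 and 6.93 in forestomach and between -0.07 and 0.26 in liver. No liver value of any of the 4 overlapped a forestomach value. Correlations between a liver and a forestomach array over all probes lay between 0.231 and 0.404.

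**Figure D1:**
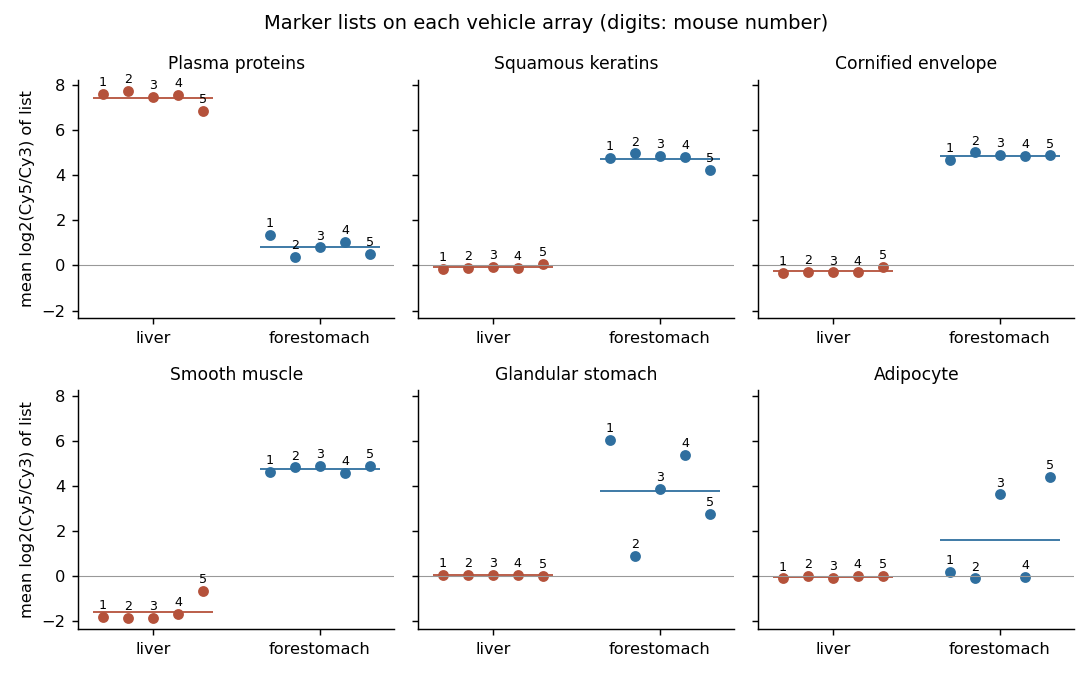
Each point is an array, labelled with its mouse, and gives the mean log2(Cy5/Cy3) of a marker list; lines are means of 5 arrays. Plasma protein, squamous and smooth muscle lists separate the organs on every array, whereas the glandular stomach list runs from 0.91 to 6.04 and the adipocyte list from -0.10 to 4.42 among forestomachs.

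The reference channel was not flat across the organs for bright genes. Levels and differences of a single channel are log2 intensities before loess, with each channel quantile-normalized on its own over the 10 vehicle arrays. Of 848 genes called at 4-fold or more higher in liver, 223 also had a Cy3 intensity at least 2-fold higher on the liver arrays and 2 a Cy3 at least 2-fold lower. Of 1096 called at 4-fold or more higher in forestomach, Cy3 was at least 2-fold higher on the forestomach arrays for 151 and on the liver arrays for 0. Among 13631 genes that were not called, Cy3 differed by 2-fold or more for 13 towards liver and 49 towards forestomach. For the 100 brightest genes of each called set, the median Cy3 difference was 2.74 towards liver and -1.4 towards forestomach. For Alb, the Cy5 differed by 10.09 between the organs and the Cy3 by 7.31, and the log2 ratio differed by 5.01. A ratio thus gives a smaller difference than the tissue channel for such genes, and why Cy3 moved was not tested.

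Of 20018 genes with a symbol, 6387 (31.9%) were called as different, with an adjusted p of 0.05 or less and a difference of 1.5-fold or more. Of these, 2706 (13.5% of all genes) were higher in liver and 3681 (18.4%) higher in forestomach. At 4-fold or more, 848 (4.24%) were higher in liver and 1096 (5.48%) in forestomach, 9.71% in all. Over all 37163 genes and transcripts on the array, 8705 (23.4%) were called, 9.44% higher in liver and 14% in forestomach, and 6.16% at 4-fold or more (2.68% and 3.48%). Of the 13494 genes with a symbol that were well above background on at least 4 of 5 arrays of an organ, 46.5% were called, 19.4% higher in liver and 27.1% in forestomach. The 5 livers lay entirely above or below the 5 forestomachs for 32.5% of the genes with a symbol. Probes were well above background on at least 4 of 5 arrays of both organs for 10269 genes, in liver and on no forestomach array for 426, and in forestomach and on no liver array for 1402. The share of calls that were higher in forestomach, 57.6%, depended on the scaling: it was 78.4% of 2732 calls when each array was only centred on its median, and 42.2% of 6964 calls when it was centred in that way without the liver array of mouse 5. No gene called in either of these fits was called in the opposite direction to the main comparison.

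**Figure D2:**
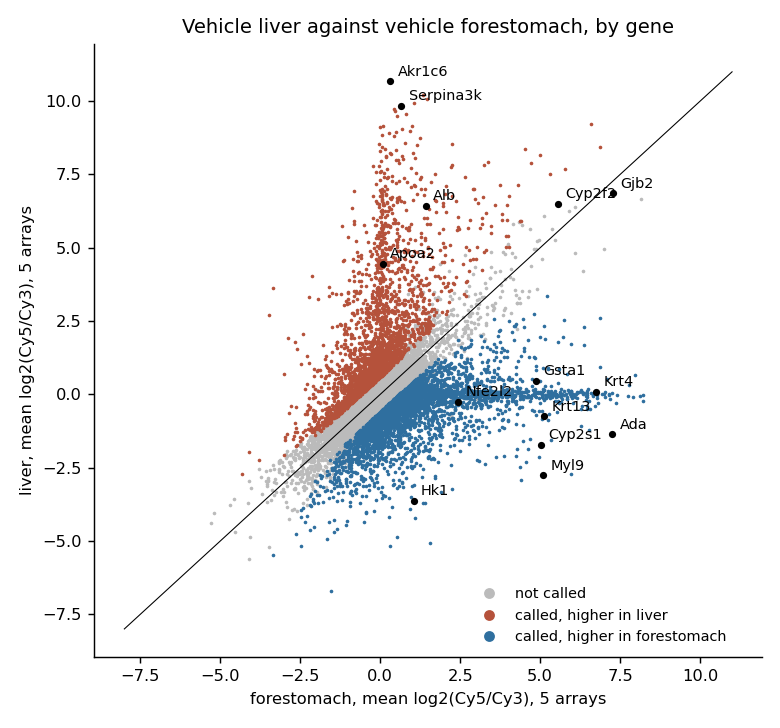
Each point is a gene, with its mean log2(Cy5/Cy3) over 5 forestomachs on the horizontal and over 5 livers on the vertical axis; red and blue points were called, black points are the genes labelled, and the line marks equality. Akr1c6 and Serpina3k lie high on the left, Ada and Myl9 low on the right, and Gjb2 and Cyp2f2 are high in both organs.

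Among genes whose Cy5 was well above background in both organs, the 10 with the largest differences towards liver encode secreted proteins, binding proteins and enzymes of hepatocytes. For Serpina3k, Fabp1, Rgn, Mup5, Mup3 and Bhmt, Cy3 was above background on 0 forestomach arrays. The size of their differences thus rests on a reference not measured in forestomach. Serpina3k, a serine protease inhibitor of plasma, was at 10.24, 10.32, 9.78, 9.86 and 9.04 in livers 1 to 5 and at 0.67, 1.06, 0.64, 0.70 and 0.23 in forestomachs, a difference of 9.19 ± 0.23 (SE; 584-fold, adjusted p = 2.07e-10). Fabp1, whose promoter is shown above, was between 9.74 and 10.51 in liver and between -0.03 and 2.83 in forestomach, with a difference of 8.87 ± 0.43 (adjusted p = 5.08e-08). Without forestomachs 1 and 4, Fabp1 differed by 9.52. Ambp, the precursor of alpha-1-microglobulin and bikunin, differed by 8.88, and Rgn, the calcium-binding protein regucalcin, by 8.74. The pheromone-binding major urinary proteins Mup5 and Mup3 differed by 8.60 and 8.16, and probes of this family may share targets. Bhmt, which remethylates homocysteine, differed by 8.05, the sulfotransferase Sult2a8 by 8.01, Serpina3m by 7.91 and Gc, the vitamin D-binding protein, by 7.82. In all 10, the lowest liver lay above the highest forestomach by rule. Where a gene was well above background in liver and on no forestomach array, only a lower bound of the fold can be given, computed from the Cy5 channel and open to dye bias. It holds only under the scaling used for that channel, and the fold under another scaling, or that of the ratio, can be smaller. In this sense it is written as at least so many fold here and below. Such bounds were highest for Cyp2c50 (at least 750-fold), Apoc4 (694-fold), Plg, plasminogen (654-fold), Cyp2c54 (605-fold) and Cyp2a12 (573-fold). They were followed by Ugt2b38 (557-fold), the tyrosine-degrading enzyme Hpd (510-fold), Agxt, which detoxifies glyoxylate (452-fold) and Ces1c (418-fold). With the Cy5 channel quantile-normalized on its own, the folds of these 9 genes were 214 to 364, and those of their ratios to the reference were 48.1 to 432. Cyp2c50 had 364 and 48.1. For its ratio, median centring gave a difference of 3.14 that was no longer called (adjusted p = 0.0761).

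In the other direction, the largest difference between measured levels belonged to Ada, adenosine deaminase, an enzyme of purine breakdown. It was at 7.14, 7.32, 7.06, 7.36 and 7.40 in forestomachs 1 to 5 and at -1.55, -1.64, -1.41, -1.58 and -0.58 in livers, a difference of -8.61 ± 0.19 (SE; 391-fold, adjusted p = 6.37e-11). Its vehicle lung level was -1.72. 4 of the next genes encode parts of the contractile apparatus or actin cytoskeleton of smooth muscle: Myl9 (-7.84), Tagln (-7.32), Csrp1 (-6.88) and Tpm2 (-6.86). Sparcl1, a secreted matrix-associated protein, differed by -7.32. Squamous genes made up the rest with Krt10 (-7.14), Sbsn, suprabasin (-7.10), and Fabp5, the epidermal fatty acid-binding protein (-6.92), besides the cytochrome P450 Cyp2s1 (-6.74). The bounds for genes on no liver array were highest for Krtdap, at least 2030-fold higher in forestomach, and Krt1, at least 1770-fold. Late cornified envelope genes followed with Lce1a1 (1330-fold), Lce1d (1290-fold), Lce1c (959-fold) and Lce1f (836-fold), whose probes may share targets. Dmkn, dermokine (1280-fold), Cnfn, cornifelin (1100-fold), the surface protein Lypd3 (860-fold) and Krt5 (711-fold) completed them. With Cy5 quantile-normalized on its own, the folds of these 10 genes were 324 to 1580, and those of their ratios 13.8 to 207. For Krt5, the keratin of basal cells, the log2 ratio gave a difference of only -3.79, and its Cy3 differed by -6.88.

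All 23 plasma protein genes were higher in liver, with a median difference of 6.79 against -0.006 over all genes. Serpinc1, antithrombin, and Apoh, beta-2-glycoprotein I, led with 9.31 and 9.20 (each above background on 3 forestomach arrays). Of the chains of fibrinogen, Fgg and Fgb differed by 8.98 and 7.42 (3 forestomach arrays each). Fga, on no forestomach array, was at least 376-fold higher in liver by its bound and 194-fold in the ratio. The smallest difference was that of Trf, transferrin, at 3.38, which had levels from 2.66 to 4.59 in forestomach. Ttr and Apoa1, carriers of thyroid hormone and of lipid, split the forestomachs as Atp4a and Gkn1 did: Ttr was at 5.13 and 3.43 in mice 1 and 4 and at 0.03 to 1.10 in the others, and Apoa1 at 5.28 and 3.99 against 0.16 to 1.25. Their differences were 5.05 and 4.55, and 6.53 and 6.16 without forestomachs 1 and 4. Hp, haptoglobin, varied the other way, at 1.02 and 2.48 in forestomachs 3 and 5 and between -1.27 and -0.89 in the others. Its mean was 6.47 in liver and 6.16 in vehicle lung, and its difference was 6.38, or 7.49 without forestomachs 3 and 5. Under median centring, 17 of the 23 genes were called, and Alb (2.87, adjusted p = 0.13) was among those that were not.

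Of 15 liver transcription factors, 10 were called as higher in liver and 0 as higher in forestomach, with a median difference of 2.45. Nr1h4, the bile acid receptor FXR, differed by 5.24 ± 0.45 (SE; above background on 2 forestomach arrays, adjusted p = 5.86e-06). Nr1i3, the xenobiotic receptor CAR, was on no forestomach array above background and at least 28-fold higher in liver (adjusted p = 0.000177). Hnf4a was at 4.97, 5.27, 5.04, 5.02 and 4.42 in livers 1 to 5. In forestomachs it was at 4.08 and 3.45 in mice 1 and 4 and at 0.44, 1.11 and 0.30 in mice 2, 3 and 5. Its difference was 3.07, and 4.33 without forestomachs 1 and 4. Foxa2 and Foxa3 had the same split, with 4.25 and 2.79, and 3.85 and 2.51, in mice 1 and 4, and no value above 0.11 in the others. Foxa2 differed by 3.39 (adjusted p = 0.0303), by 4.98 without forestomachs 1 and 4 (adjusted p = 0.00118) and by 2.37 without forestomachs 3 and 5, when it was not called (adjusted p = 0.189). Foxa3 was not called (2.17, adjusted p = 0.0947), but was without forestomachs 1 and 4 (3.40, adjusted p = 0.00829). Foxa1 had 2.29 ± 1.18 in liver and 2.64 ± 1.22 in forestomach (SD, n = 5 each; difference -0.35, adjusted p = 0.768). The lipid sensor Ppara and the hepatocyte and epithelial factor Cebpa were high in both organs, with forestomach levels of 4.31 to 4.89 and 3.00 to 3.86. Neither was called (differences 0.96 and 0.89), but without the weak liver array Ppara differed by 1.66 and Cebpa by 1.69 and both were called, as were 14 of the 15 factors. Under median centring 5 of the 15 were called, and the differences of Hnf4a (1.60, adjusted p = 0.491) and Foxa2 (2.77, adjusted p = 0.151) were not.

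Genes of liver metabolism were nearly all higher in liver. All 16 urea cycle and amino acid genes were called, with a median of 5.05. Cps1, which starts the urea cycle, was at 7.54, 7.58, 7.47, 7.44 and 5.00 in livers and between 0.00 and 0.35 in forestomachs, where it was not above background on any array. Arg1, which ends the cycle, was also present in forestomach (1.71 to 3.79, above background on 5 arrays) and differed by 3.53 (2.40 and not called under median centring, adjusted p = 0.269). Of 13 bile acid genes, 12 were called, with a median of 4.58. Slc27a5, which activates bile acids for conjugation, differed by 9.11 (above background on 1 forestomach array), and Cyp7a1, the rate-limiting enzyme of bile acid synthesis, was at 4.60, 3.70, 4.55, 4.38 and 0.52 in livers and at most 0.19 in forestomach, on no array above background. Slc10a1, the hepatocyte uptake carrier of bile salts, was the gene not called, but its 2 probes disagreed. The brighter one, which was read by rule, was bright in both channels and both organs (Cy5 16.27 in liver and 17.31 in forestomach, Cy3 17.66 and 17.51, in log2 intensity), and its ratio differed by -0.58 (adjusted p = 0.289). The other had a mean of 5.66 in liver and 0 in forestomach, above background on 5 liver arrays and on 0 forestomach arrays, and was called as higher in liver (adjusted p = 2.46e-05). Of 338 genes of the lists, 83 had more than 1 probe, and in 20 of these a further probe had another call than the one read. Further probes of Ahr, Cd4, Cdkn1a and Foxa2, genes described here from their brightest probe, were not called (0.08, -0.01, 0.22 and 1.73). Those of Ahr and Cdkn1a were above background on 0 arrays of either organ, so they give no level to set against the probe read.

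Enzymes that exist as a liver form and a general form were split between the organs. All 12 liver forms were higher in liver (median 5.75), whereas 8 of 12 general forms were higher in forestomach and 0 in liver (median -1.52). Hk1, the hexokinase of most tissues, differed by -4.68 ± 0.42 (SE). It was at -4.28, -4.14, -4.03, -3.95 and -1.78 in livers and at 0.90, 1.32, 0.57, 1.26 and 1.20 in forestomachs, with no overlap (25.6-fold). For pyruvate kinases, Pklr differed by 2.21 (above background on 1 forestomach array; 2.12 and not called without forestomachs 3 and 5, adjusted p = 0.0529) and Pkm by -2.39. For the glycogen phosphorylases, Pygl differed by 4.83 and Pygb by -2.46. For the S-adenosylmethionine synthetases, Mat2a differed by -1.18, while Mat1a was on no forestomach array and at least 282-fold higher in liver (156-fold in the ratio). Of the glucose carriers, Slc2a1 differed by -1.96, and Slc2a2, on no forestomach array, was at least 65.6-fold higher in liver. Ldha (-0.08) and Eno1 (-0.21), which have no liver form on the list, were not called. Pck1, a gluconeogenic enzyme also known from fat, was at 5.72 and 2.74 in forestomachs 5 and 3, which carried the adipocyte genes, and between -0.12 and 0.15 in the others. Its difference was 5.81, and 7.50 without forestomachs 3 and 5. Under median centring Mat2a (-1.52, adjusted p = 0.241) and Pck1 (4.22, adjusted p = 0.0732) were not called.

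**Figure D3:**
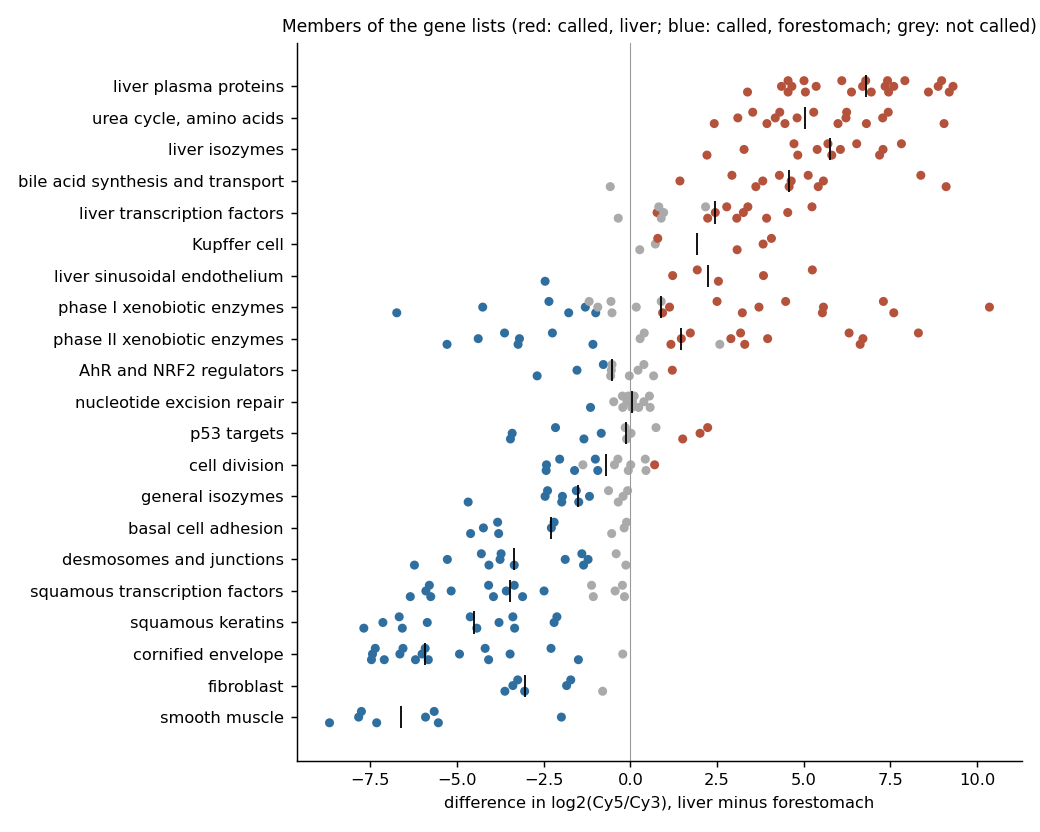
Each point is a gene of a list, placed by its difference in log2(Cy5/Cy3), liver minus forestomach; red and blue points were called as higher in liver and in forestomach, grey points were not called, and black bars are list medians. Lists of hepatocyte functions lie to the right of 0, lists of squamous epithelium and muscle to the left, and both xenobiotic enzyme lists reach to both sides.

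The squamous epithelium was as distinct. All 12 squamous keratins were higher in forestomach, with a median difference of -4.52. Basal Krt5, Krt14 and Krt15 were at 3.61 to 3.93, 3.69 to 3.91 and 3.16 to 3.27 in forestomach and at or below 0.13 in liver. Suprabasal Krt1 and Krt10, keratins of cornifying epithelium, were at least 1770-fold higher (Krt1, as above) and differed by -7.14 (Krt10). Krt13 and Krt4, those of internal epithelium, differed by -5.86 and -6.67 (above background on 1 and 2 liver arrays). Krt6a, a keratin of activated keratinocytes, varied among forestomachs, at 3.04, 2.35, 2.42, 2.97 and 0.39 in forestomachs 1 to 5. Keratins of simple epithelia behaved otherwise. Krt8 and Krt18, a pair that hepatocytes and glandular cells share, were at 0.01 to 0.40 and 0.01 to 0.33 in liver. In forestomach, Krt8 was at 1.88 and 0.82 in mice 1 and 4 and at -3.75, -2.36 and -3.00 in mice 2, 3 and 5, and neither gene was called. Without forestomachs 1 and 4, 2 of the 5 simple keratins were called as higher in liver and 0 as higher in forestomach, in place of 0 and 2.

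Of 17 cornified envelope genes, 16 were higher in forestomach and 0 in liver (median -5.92). Lor, loricrin, the main protein of the envelope, was at 7.31, 7.32, 6.69, 6.91 and 7.18 in forestomachs and at 0.83, 0.71, 0.56, 0.46 and 0.03 in livers (difference -6.56 ± 0.17, adjusted p = 2.26e-10). Spink5, an inhibitor of epidermal proteases, and Rptn, repetin, were above background on no liver array, at least 630-fold and 163-fold higher in forestomach. In the ratio their folds were 177 and 100. Crct1 differed by -7.44 and Ivl, involucrin, by -2.29 (above background on 2 and 1 liver arrays). The transglutaminase Tgm1, which crosslinks the envelope, differed by -4.19. Tgm3, which also crosslinks it, was the gene not called (0.61 ± 0.32 in liver, 0.83 ± 0.17 in forestomach, adjusted p = 0.33), on the brighter of its 2 probes. The other had a mean of 0.05 in liver and 3.90 in forestomach, above background on 0 liver arrays and on 5 forestomach arrays, and was called (adjusted p = 5.46e-10). Of 13 genes of desmosomes and other junctions, 11 were higher in forestomach (median -3.35). They included, each on no liver array above background, the desmosomal cadherins Dsg3 (at least 8.84-fold) and Dsc3 (7.85-fold). Plakophilin Pkp1 (at least 99-fold, and 38.9-fold in the ratio) and the connexin Gjb6 (at least 46.7-fold) were also among them, on no liver array either. The exceptions were Dsc2 and the connexin Gjb2. Gjb2, which hepatocytes are also known to express, was at 7.53 to 7.82 in livers 1 to 4, at 3.73 in liver 5 and at 6.91 to 7.77 in forestomachs (adjusted p = 0.739). Of 9 genes that anchor basal cells to the basement membrane, 6 were higher in forestomach, among them the hemidesmosome genes Col17a1 (at least 17.4-fold) and Itgb4 (at least 13.5-fold), both on no liver array.

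Of 16 transcription factors of squamous epithelium and foregut, 11 were higher in forestomach and 0 in liver, with a median of -3.46. Grhl3, a regulator of barrier formation, was at 6.18, 6.71, 6.04, 6.49 and 6.34 in forestomachs and between -0.14 and 0.20 in livers, on no liver array above background (at least 71.6-fold, adjusted p = 3.32e-11). Grhl1, Pitx1 and Sox2, a foregut factor, were on no liver array either, at least 38.3-fold, 317-fold and 6.33-fold higher in forestomach. In the ratio their folds were 59.7, 55.7 and 10.2. Klf4 differed by -5.76, and Klf5 and Barx1, the latter known from stomach mesenchyme, by -4.09 and -3.11 (above background on 2 liver arrays each). For Trp63, the master regulator of stratified epithelia, 2 probes disagreed. The one read was not called, with 0.57 ± 0.20 in liver and 0.74 ± 0.18 in forestomach (adjusted p = 0.343), while its Cy5 differed by -1.20 and its Cy3 by -1.39. The other had a mean of -0.31 in liver, above background on 0 arrays, and of 5.87 in forestomach, above background on 5, and was called (adjusted p = 1.75e-08). Among 10 antimicrobial and surface defence genes, 4 were higher in forestomach and 1 in liver. That share is near the 46.5% called among genes well above background in an organ. Slpi, a protease inhibitor of mucosal surfaces, differed by -5.11, the beta-defensin Defb1 by -4.47 (above background on 1 liver array) and the calprotectin subunit S100a9 by -3.52, and Lcn2, lipocalin 2, by 1.14. Lcn2 was not called under median centring (0.80, adjusted p = 0.58) or without forestomachs 1 and 4 (1.07, adjusted p = 0.0647) or 3 and 5 (1.12, adjusted p = 0.0536).

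Enzymes of xenobiotic metabolism did not belong to liver alone. Of 23 phase I genes, 11 were higher in liver and 6 in forestomach (median 0.89). Akr1c6, a hydroxysteroid dehydrogenase of liver, was at 9.94 to 11.01 in livers and 0.09 to 0.71 in forestomachs, a difference of 10.36. In forestomach its Cy5 was above background on 1 array and its Cy3 on 0, so the size is against levels mostly not measured. Cyp3a11 was on no forestomach array, at least 130-fold higher in liver. Cyp2c29 (above background on 2 forestomach arrays) and Cyp2e1 differed by 7.30 and 5.57. Cyp2e1 was at 3.84 and 4.95 in forestomachs 3 and 5, those with adipocyte genes, and between 0.44 and 1.18 in the others. Without forestomachs 3 and 5 it differed by 7.00. Cyp2s1 lay at 4.94, 5.24, 5.00, 5.00 and 4.94 in forestomachs and at -2.04, -2.43, -1.65, -2.09 and -0.38 in livers, 107-fold higher in forestomach (difference -6.74 ± 0.32, adjusted p = 3.57e-08). Its level in vehicle lung was 3.42. Aldh3a1, an aldehyde dehydrogenase of barrier epithelia, differed by -4.26 ± 0.23 (19.2-fold), Ptgs1, cyclooxygenase 1, by -2.35, Por, the reductase that feeds electrons to microsomal P450s, by -1.30 and Cbr1 by -1.0. Ephx1, microsomal epoxide hydrolase, was 1.73 to 2.18 in liver and 0.44 to 1.08 in forestomach (difference 1.13). Cyp2f2 was high in both, at 5.63 to 7.03 in liver, 5.49 to 5.73 in forestomach and a mean of 6.66 in lung. Under median centring 4 of the 23 genes were called in each direction, and Cyp2e1 (3.98, adjusted p = 0.0546), Por (-1.62, adjusted p = 0.333), Ephx1 (0.69, adjusted p = 0.772), Cbr1 (-1.27, adjusted p = 0.486) and Cyp2f2 (0.41, adjusted p = 0.909) were not.

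The 3 members of the CYP1 family, which oxidise polycyclic aromatic hydrocarbons, had 3 patterns. Cyp1a2 was at 5.04, 5.28, 4.98, 5.04 and 2.81 in livers and between -0.03 and 0.36 in forestomachs, not above background on any forestomach array (at least 146-fold; adjusted p = 8.24e-06). Its difference of 4.48 was 2.27 and not called under median centring (adjusted p = 0.262), and its Cy3 differed by 3.80. Cyp1b1 was at -0.52, 0.66, -0.06, -0.02 and -0.03 in forestomachs and at -2.27, -2.02, -1.99, -2.25 and -0.36 in livers, not above background on any liver array (at least 3.24-fold; adjusted p = 0.00266). Cyp1a1 was at -0.01, 2.84, 0.72, 0.09 and -0.14 in livers and at 1.85, 4.39, 1.15, 0.36 and 1.73 in forestomachs. Its groups overlapped and it was not called (difference -1.19, adjusted p = 0.299). The highest Cyp1a1 in liver and the highest in forestomach came from the same vehicle animal, mouse 2.

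Of 21 phase II genes, 11 were higher in liver and 7 in forestomach (median 1.47), and 4 and 5 under median centring. The glucuronosyltransferases Ugt2b5, Ugt2b36 and Ugt2b1 were above background on no forestomach array, with bounds of 239-fold, 246-fold and 71.8-fold. In the ratio their folds were 317, 105 and 99. The alpha class of glutathione S-transferases was split. Gsta3 was 8.42 to 8.64 in livers and 1.53 to 2.63 in forestomachs (difference 6.31 ± 0.18, adjusted p = 6.97e-10), whereas Gsta1, Gsta2 and Gsta4 were higher in forestomach by -4.39, -3.20 and -2.25. Gsta1 and Gsta2 are close in sequence, and both read higher in mice 1 and 4 than in the other forestomachs (5.78 and 5.31 against 4.25 to 4.51 for Gsta1). Gsta2 was not called without forestomachs 1 and 4 (-2.20, adjusted p = 0.0857) or under median centring (-2.91, adjusted p = 0.121). Sult2b1, a cholesterol sulfotransferase of skin, differed by -5.29 (above background on 1 liver array), Gsto1 by -3.63 and Nqo1, a quinone reductase, by -3.24. Nqo1 was at 3.32, 1.85, 1.82, 2.56 and 2.05 in forestomachs and at -1.66, -1.63, -1.32, -1.33 and 1.34 in livers. Among 11 regulators of both responses, Nfe2l2, which encodes NRF2, was higher in forestomach in every mouse, at 2.66, 2.80, 2.07, 2.48 and 2.17 against -0.33, -0.23, -0.07, -0.03 and -0.61 in liver (difference -2.69 ± 0.16, 6.45-fold, adjusted p = 2.54e-07). Ahr, the aryl hydrocarbon receptor, was higher in liver, at 0.92, 1.01, 1.10, 0.97 and 0.29 against -0.06, -0.32, -0.44, -0.35 and -0.56 (difference 1.21 ± 0.15, 2.31-fold, adjusted p = 0.000118). Under median centring the difference of Ahr was 0.89 and not called (adjusted p = 0.583), while that of Nfe2l2 was -2.92 (adjusted p = 0.0423). The partner of the receptor, Arnt, differed by 0.39, and Keap1, which holds NRF2 back, by 0.67, and neither was called. Without the weak liver array Keap1 differed by 0.89 and was called (adjusted p = 0.000203).

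**Figure D4:**
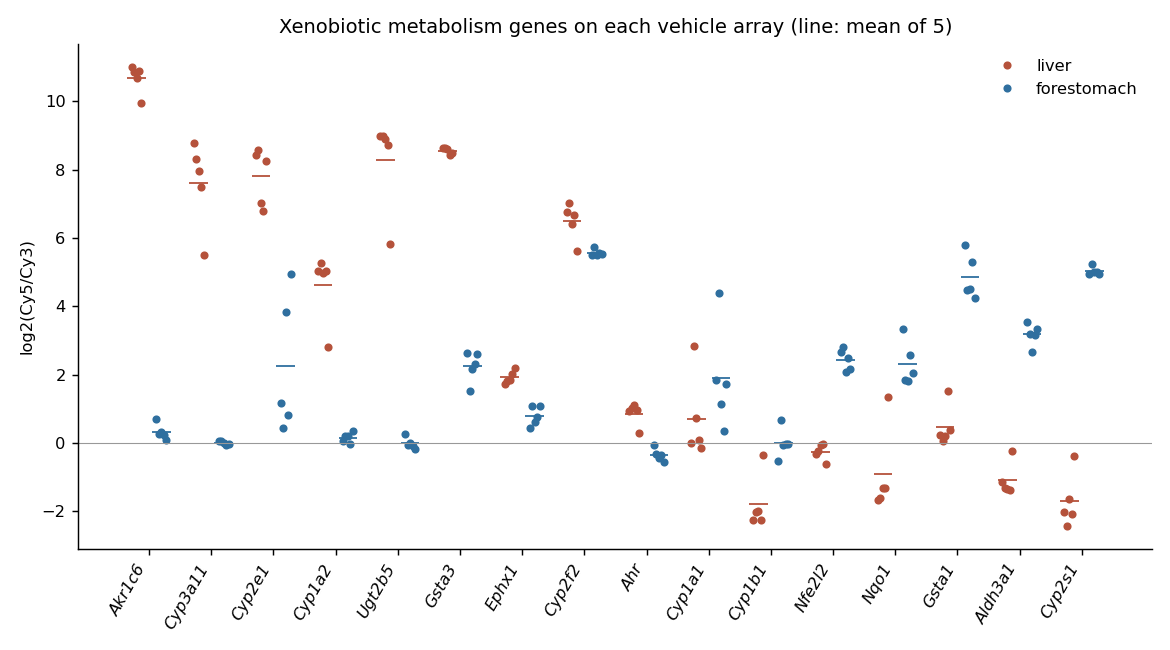
Each point is an array, with log2(Cy5/Cy3) on the vertical axis; red points are livers, blue points forestomachs, and lines are means of 5. Akr1c6, Cyp3a11, Ugt2b5 and Gsta3 are higher in every liver, Nfe2l2, Nqo1, Gsta1, Aldh3a1 and Cyp2s1 in every forestomach, and Cyp1a1 overlaps with its highest points at 2.84 and 4.39 from mouse 2.

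Of 14 genes of cell division, 6 were higher in forestomach and 1, Aurkb, in liver (median -0.70). These 7 calls of 14 lie near the 46.5% called among genes well above background in an organ. The organs did not overlap for 1 of the 14 genes, against 32.5% of all genes with a symbol. Aurkb was above background on no array. Mki67, the proliferation antigen Ki-67, was at -5.23, -5.37, -5.29, -4.67 and -1.97 in livers and at -2.13, -2.25, -2.0, -2.07 and -1.96 in forestomachs, a difference of -2.43 ± 0.56 (SE; adjusted p = 0.00668). Liver 5 lay within the range of the forestomachs. Without the weak liver array it differed by -3.06 (adjusted p = 2.16e-09), and 9 of 14 genes were called as higher in forestomach. Of the 7 vehicle calls, 0, 0 and 1 were called in the same direction at D1, D2 and D3. Birc5 and Cdc20, which act in mitosis, differed by -2.42 and -2.04, and of 2 further probes of Birc5 1 was not called (-0.49) and 1 was called the other way (0.64). Of 13 genes of nucleotide excision repair, the pathway that removes bulky DNA adducts, 1 was called, against that same 46.5%. By limma, 6 of the 13 had an unadjusted p under 0.05. Their median difference was 0.04, and it was -0.07 without the weak liver array and -0.23 under median centring. Without the weak liver array, 2 were called as higher in liver and 1 in forestomach. The gene called with all arrays was Ercc1, a subunit of the repair endonuclease, with -0.33 ± 0.30 in forestomach and -1.48 ± 0.71 in liver (SD, n = 5; difference -1.15, adjusted p = 0.0137). Ercc1 was not called without forestomachs 1 and 4 (-1.12, adjusted p = 0.0695). Of 12 p53 targets, 5 were higher in forestomach and 3 in liver. Among genes well above background in an organ, 27.1% were higher in forestomach and 19.4% in liver. Cdkn1a, the cell cycle inhibitor p21, and Phlda3 differed by -3.41 and -3.46, and Gdf15, Bbc3 and Trp53inp1 by 2.23, 2.01 and 1.51, so the list had no common direction (median -0.13). Under median centring, 4 of the 12 were called as higher in forestomach and 1, Gdf15, as higher in liver.

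Markers of other cell types differed as well. All 8 smooth muscle genes were higher in forestomach (median -6.61), and their mean was 4.57 to 4.90 in every forestomach and -1.86 to -0.64 in livers. Actg2, the actin of visceral muscle, was on no liver array above background, at least 377-fold higher in forestomach. Of 7 fibroblast genes, 6 were higher in forestomach, Col3a1 by -3.62 and Col1a1 by -3.25. Of 6 genes of Kupffer cells, the macrophages of liver, 4 were higher in liver, with Cd5l at 4.07 (above background on 2 forestomach arrays) and Clec4f, on no forestomach array, at least 17.8-fold higher. Of 6 genes of sinusoidal endothelium, 5 were higher in liver, with Stab2 at 3.84 (3 forestomach arrays) and Clec4g, on no forestomach array, at least 46.3-fold higher, and Lyve1, which lymphatic vessels also carry, was higher in forestomach (-2.46). Under median centring 2 genes of each of these 2 lists were called as higher in liver. Of 9 leukocyte genes, Cd4 alone was called, at 3.22 ± 0.18 in liver and 0.73 ± 0.06 in forestomach (SD, n = 5), whereas Cd3e, a T cell gene, was not called (0.37). Under median centring Cd4 was not called either (1.89, adjusted p = 0.232). Of 8 glandular stomach genes, 6 were called as higher in forestomach; without the forestomachs of mice 1 and 4, 3 were. Of 5 adipocyte genes, limma called 0 with all arrays (1 with an unadjusted p under 0.05) and 1 without forestomachs 1 and 4. Of 7 pancreatic genes, Amy2a5 (4.15, above background on 2 forestomach arrays) and Ctrb1 (0.68) were higher in liver and Cel (-1.62, above background on 1 liver array) in forestomach. A further probe of Amy2a5 was not called (-0.01), and Ctrb1 was not called without forestomachs 1 and 4 (0.74, adjusted p = 0.0953) or 3 and 5 (0.64, adjusted p = 0.154).

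The same contrast could be taken in the dosed mice, which are other animals. At D1, D2 and D3, 5228 (26.1%), 5026 (25.1%) and 5493 (27.4%) of 20018 genes were called between liver and forestomach. The shares higher in liver were 10.7%, 10.5% and 11.7%, and those higher in forestomach 15.4%, 14.6% and 15.8%. Of the 6387 vehicle calls, 4826 (75.6%), 4572 (71.6%) and 4442 (69.5%) were called in the same direction at these doses, and 0 in the opposite one. They made up 92.3%, 91% and 80.9% of the calls of each dose. The liver arrays of the slide that held liver 5 were weak at each dose too (10.8% to 13% of probes above background). Without them, 90.1%, 87.6% and 89.7% of vehicle calls were called in the same direction and 1, 1 and 2 genes in the opposite one, with 3, 3 and 2 livers left. Under median centring, 68, 39 and 31 genes were called as higher in liver at D1, D2 and D3, against 589 in vehicle. Of the 40 genes chosen by rule, 40 were called in the same direction at each dose. Of the 115 list genes higher in vehicle liver, 99, 89 and 81 were called likewise at D1, D2 and D3, and of the 124 higher in vehicle forestomach, 108, 104 and 107 were.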

How the data were processed

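Total RNA of single animals was hybridized to Agilent mouse arrays with Cy5 on the tissue and Cy3 on the reference. Per the file headers, Feature Extraction (version 10.7.3.1) gave the deposited intensity of each spot; the authors' own table, used as an alternative, holds log2 ratios after LOWESS without background correction (r = 0.98 to 0.998 with the ratios used here). Median spot intensities were normalized here by loess within each array, with control and non-uniform spots at weight 0, and repeated spots were averaged. Differences were tested with limma (version 3.58.1, R version 4.3.3; moderated test, 2-sided, Benjamini-Hochberg over all probes) with organ as the only term; the Fs test of the study was not run. A call needs an adjusted p of 0.05 or less and 1.5-fold or more, and a second threshold is 4-fold. A gene is read from its probe with the highest mean Cy5, and 17 genes had probes called in opposite directions. Symbols are those of RefSeq, and near-identical genes may share probes. The number of arrays limits the precision, and 0 probes were saturated.

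Genes were named by rule: per direction, the 10 largest differences among called genes well above background on at least 4 of 5 arrays of both organs and without overlap, and the 10 highest lower bounds among those on at least 4 arrays of one organ and on 0 of the other. A bound sets the mean of the bright group, in the Cy5 channel after loess and Aquantile scaling, against the other group, where each array enters with the lowest signal of a probe well above background or with the own signal of the probe, whichever is higher (the own signal on 39 of 45 array values towards liver and 24 of 50 towards forestomach). List genes were named by role. A few results are not reported here. Members, lists and the naming rule were chosen with earlier results of these data known. The mouse number pairs the organs because it marks the same animal, and correlations of paired deviations were 0.145, -0.044, -0.04, 0.083 and 0.05 for mice 1 to 5. Each slide held 1 organ, so a difference between slides cannot be told apart from a difference between organs. Slide was tried as a random block (correlation 0.242), which cannot remove such a difference. Other alternatives were the scaling, the background, the probe filter, the arrays in the fit and leaving out arrays. The fit was tested on simulated data.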

Additional observations from a re-analysis of the deposited data

Results flagged for a closer look

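In the 5 livers, 1 array lay apart from the other 4 for 17 of 39 genes named by rule, and it was mouse 5 each time. The gap to the nearest liver, as a share of the whole range, passed the critical value of Dixon (0.71 for 5 samples), which chance passes in about 1 group in 20. Among genes higher in liver and genes higher in forestomach alike, the shares were Rgn (0.934), Bhmt (0.785), Sult2a8 (0.901), Ada (0.787), Myl9 (0.724), Tagln (0.85), Sbsn (0.904), Csrp1 (0.801), Tpm2 (0.805), Plg (0.801), Cyp2c54 (0.88), Cyp2a12 (0.849), Ugt2b38 (0.908), Hpd (0.717), Agxt (0.844), Ces1c (0.763) and Lce1f (0.723). For Rgn, regucalcin, liver 5 was at 7.68 against 9.94 to 10.10 in the others, and for Sbsn, suprabasin, at -0.53 against -2.61 to -2.41, so liver 5 lay nearer to 0 in both directions. Without liver 5, Rgn differed by 9.21 in place of 8.74, and Sbsn by -7.5 in place of -7.1.

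For the mean of a gene list, liver 5 lay apart in 22 of 31 lists. The shares were liver transcription factors (0.92), bile acid genes (0.936), urea cycle and amino acid genes (0.858), liver isozymes (0.886), general isozymes (0.919), phase I xenobiotic enzymes (0.808), phase II xenobiotic enzymes (0.801), AhR and NRF2 regulators (0.725), simple epithelial keratins (0.862), cornified envelope (0.852), squamous junctions (0.928), basal cell adhesion (0.811), cell division (0.747), p53 targets (0.765), smooth muscle markers (0.852), fibroblast markers (0.899), glandular stomach markers (0.717), pancreas acinar markers (0.876), liver sinusoidal endothelium markers (0.899), endothelium markers (0.815), cholangiocyte markers (0.814) and red blood cell markers (0.838). This array had 12.5% of its probes above background, against 40.5% to 45.5% on the other livers, and the part of that in these values was not tested.

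Among forestomachs, 3 of 39 genes and 1 of 31 lists had an array that lay apart in the same way. Rgn, regucalcin, was at 1.36 in mouse 1 against 0.58 to 0.76 in the others (share 0.768). Cyp2s1 was at 5.24 in mouse 2 against 4.94 to 5.00 (share 0.816), and Lce1c, a late cornified envelope gene, at 6.26 in mouse 3 against 5.73 to 5.82 (share 0.835). The mean of the p53 targets was -0.59 in mouse 3 against -0.47 to -0.44 (share 0.758).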

How the results depend on the processing

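Under the 21 alternatives other than median centring of all 10 arrays and the 4-fold threshold, the number of genes called stayed between 5967 and 7482, and 0 genes were called in the opposite direction except 2 with the Cy5 channel alone. Centring each array on its median gave 2732 calls (589 higher in liver, 2143 in forestomach), and 2041, 1839 and 2067 of them were also called at D1, D2 and D3, where 68, 39 and 31 genes were called as higher in liver. The 4-fold threshold gave 1944 (848 and 1096). Leaving out 1 array at a time gave 6047 to 7300 calls, the highest without the liver array of mouse 5 (3006 higher in liver, 4294 in forestomach). With mouse as a replicate block there were 6393 calls (2712 and 3681), of which 6283 were shared, and pairing changed the call of 0 of the 40 named genes. With slide as a random block there were 6063, a fit that cannot separate slide from organ because each slide held 1 organ. Chosen after seeing the data were the fits without forestomachs 1 and 4 (6035 calls), without forestomachs 3 and 5 (5967), without liver 5 and forestomachs 1 and 4 (7482), median centring without liver 5 (6964) and the Cy5 channel alone (6242). Of the named genes, Cyp2c50 was not called under median centring (3.14, adjusted p = 0.0761). The median of the adipocyte list was 0.06 without forestomachs 3 and 5, in place of -1.79. Of 31 list medians, 25 kept their sign under each alternative, and those of AhR and NRF2 regulators, excision repair, pancreas, endothelium, adipocyte and lung genes changed it under at least 1. The cause of these shifts was not tested. The weak Cy5 signal of liver 5 limits what can be said of genes near background.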

Other observations

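Several gene families, grouped by symbol after the values were seen, divided between the organs, and some of their members are also in the lists above. Over all genes with a symbol, 13.5% were called as higher in liver and 18.4% as higher in forestomach. Of 45 Cyp2 genes, 30 were higher in liver and 3 in forestomach, and of 8 Cyp3 genes 6 and 0. All 8 Mup genes and 11 of 17 carboxylesterase genes (Ces) were higher in liver, and 0 of either in forestomach. The serpins, protease inhibitors of 2 large clades, were split: 17 of 22 Serpina genes were higher in liver and 0 in forestomach, while 13 of 27 Serpinb genes were higher in forestomach and 0 in liver, with Serpinb3a, on no liver array above background, at least 73.1-fold higher. All 16 Lce genes and 13 of 14 Sprr genes, both of the epidermal differentiation complex, were higher in forestomach, with Lce3a at least 435-fold and Sprr2i at least 76.4-fold higher, both on no liver array. Of 16 S100 genes, 6 were higher in forestomach and 2 in liver, and S100a14 differed by -6.56 (above background on 2 liver arrays). The share of S100 genes called lies near the 46.5% called among genes well above background in an organ. Under median centring, 13 Cyp2, 6 Cyp3, 4 Mup, 6 Ces and 7 Serpina genes were called as higher in liver, and 12 Serpinb, 16 Lce, 10 Sprr and 7 S100 genes as higher in forestomach. Members of the Mup, Lce, Sprr and Cyp2 families are close in sequence, and their probes may share targets.

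Small shifts ran through the 79 ribosomal protein genes (Rpl and Rps), of which 64 were higher in forestomach and 2 in liver, with a median of -1.10. Under median centring the median was -1.53 and 0 were called, and under median centring without liver 5 it was -0.66 with 47 and 2 called. For 39 proteasome genes (Psm), the direction depended on the scaling: the median was 0.12 (7 higher in liver, 2 in forestomach), -0.20 under median centring and 0.64 under median centring without liver 5.

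For markers of further cell types, counts can be set beside the 31.9% called over all genes with a symbol. Of 6 general endothelial genes, 2 were higher in forestomach, as were 3 of 6 cholangiocyte genes, and of 4 red blood cell genes 2 were higher in liver. Among 5 lung markers, Scgb1a1, a secretoglobin of airway club cells, was the 1 that was called, on no liver array above background and at least 43.9-fold higher in forestomach, with a forestomach mean of 5.06 and a vehicle lung mean of 8.18.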
